A study of Arabidopsis thaliana with 24 samples.

Results

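The major light-harvesting complex of photosystem II (LHCII) was followed at the transcript level through the 9 nuclear genes that encode its subunits in Arabidopsis. These were the 5 LHCB1 genes *CAB1* (AT1G29930), *CAB2* (AT1G29920), *CAB3* (AT1G29910), *LHB1B1* (AT2G34430) and *LHB1B2* (AT2G34420), the 3 LHCB2 genes *LHCB2.1* (AT2G05100), *LHCB2.2* (AT2G05070) and *LHCB2.3* (AT3G27690), and *LHCB3* (AT5G54270). The genes were selected by locus and not by their values, and all 9 were found among the 27826 transcripts of the table. LHCB1, LHCB2 and LHCB3 are thylakoid membrane proteins that bind chlorophyll a and b and assemble into trimers, the largest antenna of the green leaf. Some of these trimers move from photosystem II to photosystem I when LHCB1 and LHCB2 are phosphorylated, a rearrangement known as a state transition. GNAT2 is an acetyltransferase of the plastid that is required for this rearrangement, so that the antenna genes were compared between plants with and without it.

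The WT plants were of the ecotype Col-0, and the *gnat2* plants came from a single line in which a T-DNA insertion knocks out *GNAT2*. Soil-grown plants of both genotypes, 4.5 weeks old and kept in short days, were placed 2 h after the lights came on under high light (HL, 1000 µmol photons per square metre and second) or in darkness (D) for 2 h, or stayed in control light (C, 120 µmol). Rosettes of 4 biological replicates per genotype and light were hybridized to 24 Affymetrix Arabidopsis gene arrays. Values are log2 intensities that the authors had background-corrected by RMA and brought to one distribution by quantile normalization, and the median over all transcripts was 2.35.

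The labels were checked first. *GNAT2* itself ranged from 5.31 to 6.30 in WT and only from 1.53 to 2.39 in *gnat2*, as the genotype labels require. The 3 markers of green leaf tissue lay between 8.38 and 12.72, whereas the 3 root, 2 flower and 2 seed markers stayed below the array median, at 0.85 to 2.03. The median SD per transcript within a group was 0.21 to 0.23 in WT and 0.15 to 0.17 in *gnat2*, and 0 pairs of arrays were identical. Rosettes hold several cell types, and fewer cells of a type cannot be told apart from less RNA per cell. The members of the family are close paralogs, and the sources used here do not say how probes that match several of them were treated, so that signal of one gene through the probes of another remains uncertain.

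The annotation of the assembly TAIR10.1 places *CAB3*, *CAB2* and *CAB1* next to each other on chromosome 1, with 0 genes between them. *LHB1B2* and *LHB1B1* are direct neighbours on chromosome 2, where 5 other genes separate *LHCB2.2* from *LHCB2.1*. *LHCB2.3* lies alone on chromosome 3 and *LHCB3* on chromosome 5. For 8 of the 9 genes, the value exceeded the array median on all 24 arrays. *CAB2* lay below the median on all 24, between 0.96 and 2.00, with a lower quartile of all transcripts at 1.35, and was not shown to be above background. Its differences are therefore given for completeness only.

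After 2 h of HL the transcripts of 8 of the 9 genes were lower in WT at an adjusted p under 0.05 in limma, where 11.5% of all transcripts were called lower. *CAB2* was the gene that was not called. The fall exceeded 2-fold for 5 genes, against 3.11% of all transcripts. The median log2 fold change of the 9 genes was -1.18, beside -0.01 over all transcripts. *LHB1B1* fell most, to 4.34% of its control level, and *CAB1*, *LHCB2.1* and *LHCB3* fell by less than 2-fold.

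*LHB1B1* encodes an LHCB1 protein and gave values of 11.21, 11.28, 11.40 and 11.23 in WT under C. Under HL the WT arrays read 6.56, 6.72, 6.97 and 6.78. The groups were thus separated by more than 4 log2 units, and no array of one light came near the other. The log2 fold change reached -4.53 (standard error 0.13, adjusted p = 1.90e-17 in limma), a 23.1-fold lower level. Ordered by log2 fold change, this was the transcript with rank 5 among all falls on the WT arrays.

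*LHB1B2*, its direct neighbour and likewise an LHCB1 gene, gave 10.32, 10.30, 10.28 and 10.25 in WT under C and 9.03, 8.93, 9.19 and 9.28 under HL. The 4 HL arrays lay below the 4 C arrays. The fall of 1.18 on the log2 scale (standard error 0.12, adjusted p = 3.44e-08) corresponded to a 2.27-fold lower level.

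Of the cluster on chromosome 1, *CAB3* read 9.82, 9.83, 9.97 and 10.30 in WT under C and 8.40, 8.39, 8.71 and 8.58 under HL. *CAB1* lay between 9.92 and 10.01 on the 4 arrays under C and read 9.13, 9.10, 9.47 and 9.15 under HL. In both genes all HL arrays were lower than all C arrays. *CAB3* was 2.75-fold lower (log2 fold change -1.46, standard error 0.15, adjusted p = 2.31e-08), and *CAB1* was 1.69-fold lower (-0.75, standard error 0.10, adjusted p = 3.68e-06). *CAB2*, which lies between them, had means of 1.39 ± 0.33 (SD, n = 4) under C and 1.15 ± 0.14 under HL, with overlapping arrays and a log2 fold change of -0.24 (adjusted p = 0.307).

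**Figure D1:**
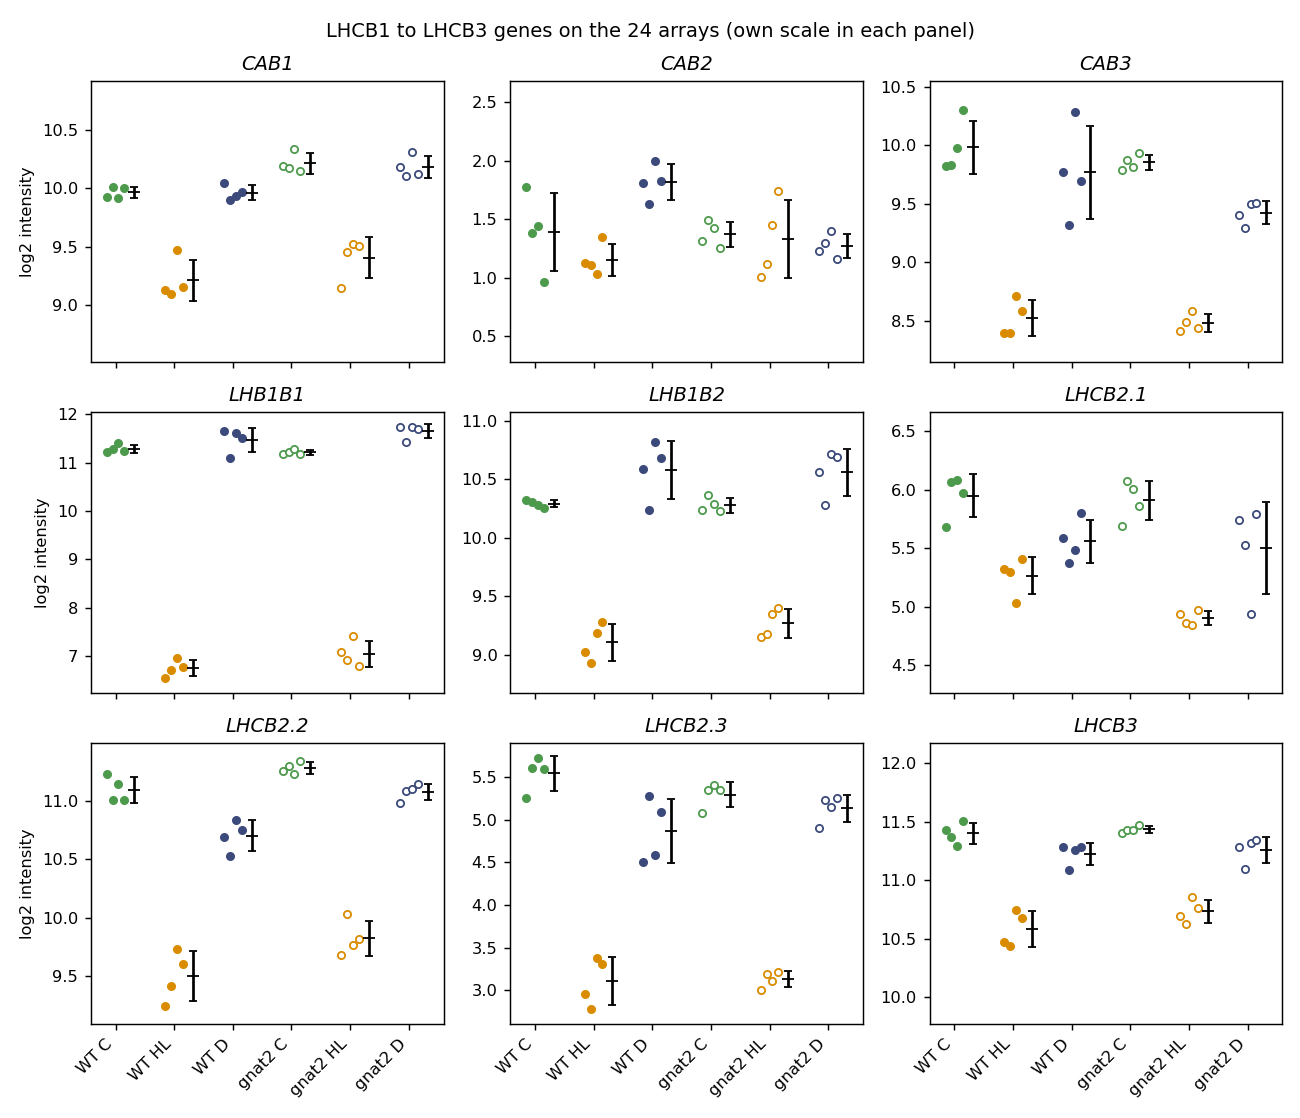
Log2 intensity of each of the 9 LHCII genes on every array (y axis, own scale in each panel) by genotype and light (x axis), with filled points for WT, open points for *gnat2* and bars for the mean and SD of 4 arrays. In 8 genes the HL arrays are the lowest of their genotype on average, most of all in *LHB1B1*, which reads 6.56 to 6.97 in WT under HL and 11.21 to 11.40 under C.

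LHCB2 is the subunit whose phosphorylation is tied most closely to the docking of LHCII at photosystem I. Its 3 genes fell by unlike amounts under HL in WT. *LHCB2.3* read 5.25, 5.61, 5.72 and 5.59 under C and 2.96, 2.79, 3.38 and 3.31 under HL, and *LHCB2.2* read 11.23, 11.01, 11.14 and 11.01 under C and 9.25, 9.42, 9.73 and 9.61 under HL. The lights did not overlap in either gene. *LHCB2.3* was 5.42-fold lower (log2 fold change -2.44, standard error 0.16, adjusted p = 1.44e-11) and *LHCB2.2* 3.02-fold lower (-1.59, standard error 0.11, adjusted p = 3.50e-11).

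*LHCB2.1* read 5.68, 6.06, 6.08 and 5.97 in WT under C and 5.32, 5.30, 5.03 and 5.41 under HL. The arrays were again separated, but the fall was only 1.61-fold (-0.69, standard error 0.15, adjusted p = 0.00116). *LHCB3*, the gene for a subunit of the trimers that are bound moderately to photosystem II, read 11.43, 11.37, 11.30 and 11.51 under C and 10.47, 10.44, 10.75 and 10.68 under HL. It was 1.76-fold lower (-0.82, standard error 0.10, adjusted p = 3.52e-07), with no overlap between the lights.

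The same comparison was made in *gnat2*, where HL again lowered 8 of 9 genes, 6 of them by over 2-fold, while 12.1% and 3.47% of all transcripts were called so. The median log2 fold change of the genes was -1.01, beside -0.01 over all transcripts. *LHB1B1* read 11.18, 11.21, 11.28 and 11.18 under C and 7.08, 6.91, 7.42 and 6.81 under HL, and was the transcript with rank 9 among all falls. Again the lights did not overlap, and the level under HL was 5.60% of that under C (log2 fold change -4.16, standard error 0.13, adjusted p = 2.01e-17). *LHCB2.3* fell by 2.17 (adjusted p = 1.06e-10) and *LHCB2.2* by 1.46 (adjusted p = 1.52e-10). Smaller falls were measured for *CAB3* (1.37, adjusted p = 5.81e-08), *LHB1B2* (1.01, adjusted p = 3.85e-07) and *LHCB2.1* (1.00, adjusted p = 1.13e-05), of which the last pair lay at the 2-fold limit with 2.01-fold each. *CAB1* fell by 0.81 (adjusted p = 1.17e-06) and *LHCB3* by 0.70 (adjusted p = 3.26e-06). The HL calls of these 8 genes at an adjusted p under 0.05 were made in all 17 alternatives at that limit, in both genotypes.

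**Figure D2:**
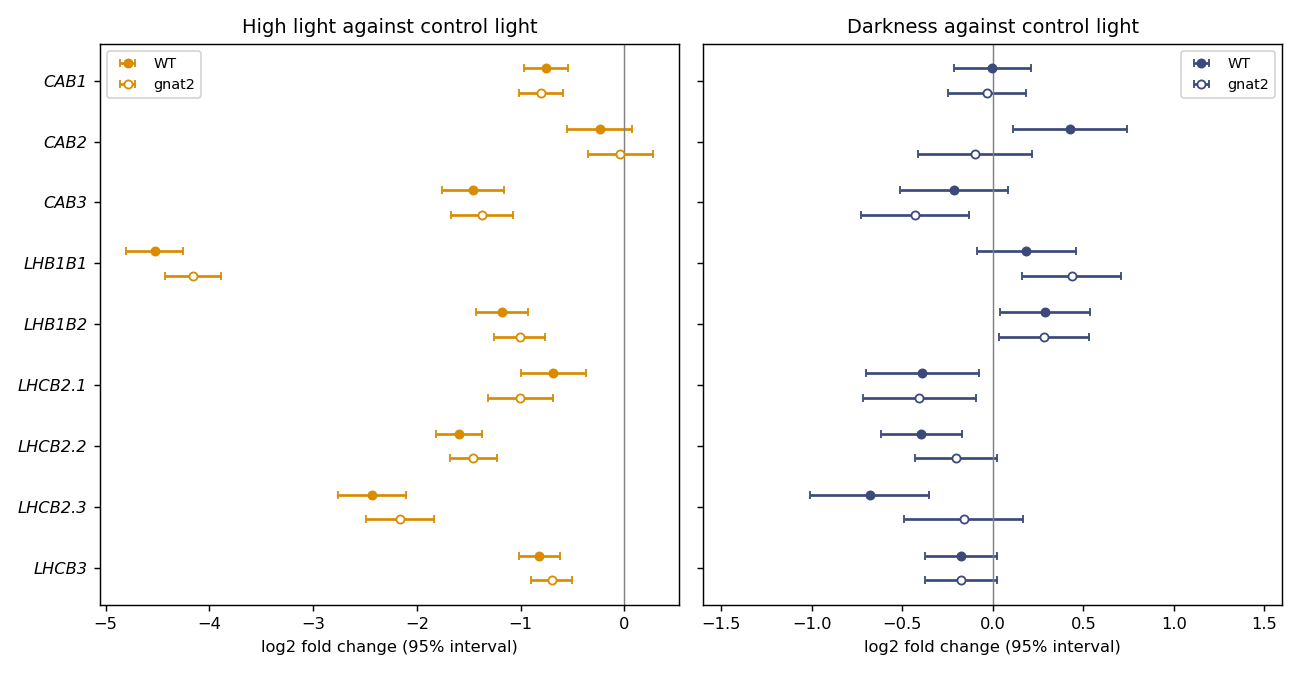
Log2 fold change of each gene (y axis) under HL (left) and under D (right) against C (x axes with different scales), with 95% intervals from limma, filled for WT and open for *gnat2*. The HL intervals of all genes but *CAB2* lie wholly below 0, with changes down to -4.53 for *LHB1B1*, whereas the D changes lie between -0.68 and 0.43.

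Whether the loss of GNAT2 altered the HL response was tested by subtracting the response of WT from that of *gnat2*. This difference passed the limit for 0 of the 9 genes, at an adjusted p under 0.05, and for 0.0108% of all transcripts. Without adjustment, 0 of the 9 genes had a p under 0.05, beside 6.18% of all transcripts. The largest difference belonged to *LHB1B1*, whose fall was 0.37 smaller in *gnat2* (95% interval -0.02 to 0.76, adjusted p = 0.832). *LHCB2.1* had the largest difference in the other direction, -0.32 (95% interval -0.76 to 0.12, adjusted p = 0.892). These intervals still allow differences of that size, and a missed threshold does not show equal responses.

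Markers of other cell types also moved with HL. *SUC2*, a sucrose carrier of phloem companion cells, had means of 6.64 and 5.90 in WT under C and HL, and of 6.53 and 5.35 in *gnat2*. *MYB60* of guard cells had means of 2.93 and 2.50 in WT and 2.64 and 2.23 in *gnat2*, and *ATML1* of the epidermis 6.63 and 6.27 in WT and 6.73 and 6.41 in *gnat2*. Of the green leaf markers, *RCA* (Rubisco activase) had means of 11.33 and 11.44 in WT under C and HL, and of 11.19 and 11.24 in *gnat2*. *RBCS2B*, a small subunit of Rubisco, had means of 9.21 and 9.55 in WT and 8.65 and 9.01 in *gnat2*. The mean of *RBCS1A*, the remaining green leaf marker, was 12.72 in all these groups. Their part in the LHCII result was not tested.

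Because levels of different probe sets cannot be set against each other, paralogs were compared by their responses. For each array the log2 value of one gene was subtracted from that of another, and the differences of 4 arrays under HL or D were compared with those of 4 arrays under C by an exact two-sided permutation test. There are 70 assignments of the arrays, so that 0.0286 is the smallest p the test can give. In all, 10 pairs were tested in 2 lights and 2 genotypes, which makes 40 tests, and 25 of them reached this smallest p. *CAB2*, with values below the array median, was part of 8 tests and of 4 at the smallest p, and without it 21 of 32 tests reached this p. The tests share genes and arrays and are not independent, and those of *LHB1B1* under HL restate its large fall. Pairs of other transcripts were not tested, so that nothing particular to the family was drawn from the count. The p-values of these tests are given without adjustment.

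Under HL, the neighbours *LHB1B1* and *LHB1B2* parted. The difference between them lay at 0.89 to 1.13 in WT under C and at -2.50 to -2.21 under HL, a shift of -3.34 (exact p = 0.0286). In *gnat2* it went from 0.85 to 1.00 under C to -2.59 to -1.93 under HL, a shift of -3.15 (exact p = 0.0286). *LHB1B1* thus lost more than its neighbour on every HL array. It also fell more than *CAB1*, by 3.77 in WT and 3.35 in *gnat2*, measured as the rise of *CAB1* over *LHB1B1* (exact p = 0.0286 in each), and more than *LHCB3*, with shifts of -3.71 and -3.46 (exact p = 0.0286 in each). Against *LHCB2.1* it shifted by -3.84 in WT, the largest shift of the tested pairs, and by -3.15 in *gnat2* (exact p = 0.0286 in each).

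In the cluster on chromosome 1, *CAB1* fell less than *CAB3*. The difference between the genes shifted upwards by 0.71 in WT, from -0.30 to 0.18 under C to 0.57 to 0.77 under HL, and by 0.57 in *gnat2* (exact p = 0.0286 in each). Among the LHCB2 genes, *LHCB2.1* fell less than *LHCB2.3*, by 1.75 in WT and 1.16 in *gnat2*, and less than *LHCB2.2*, by 0.91 and 0.45 (exact p = 0.0286 for each of the 4 shifts). *LHCB2.1* and *LHCB3* had overlapping differences in WT (shift 0.13, exact p = 0.486). In *gnat2* *LHCB2.1* fell more than *LHCB3*, with a shift of -0.30 (exact p = 0.0286). Whether the last shift differs between the genotypes was not tested.

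**Figure D3:**
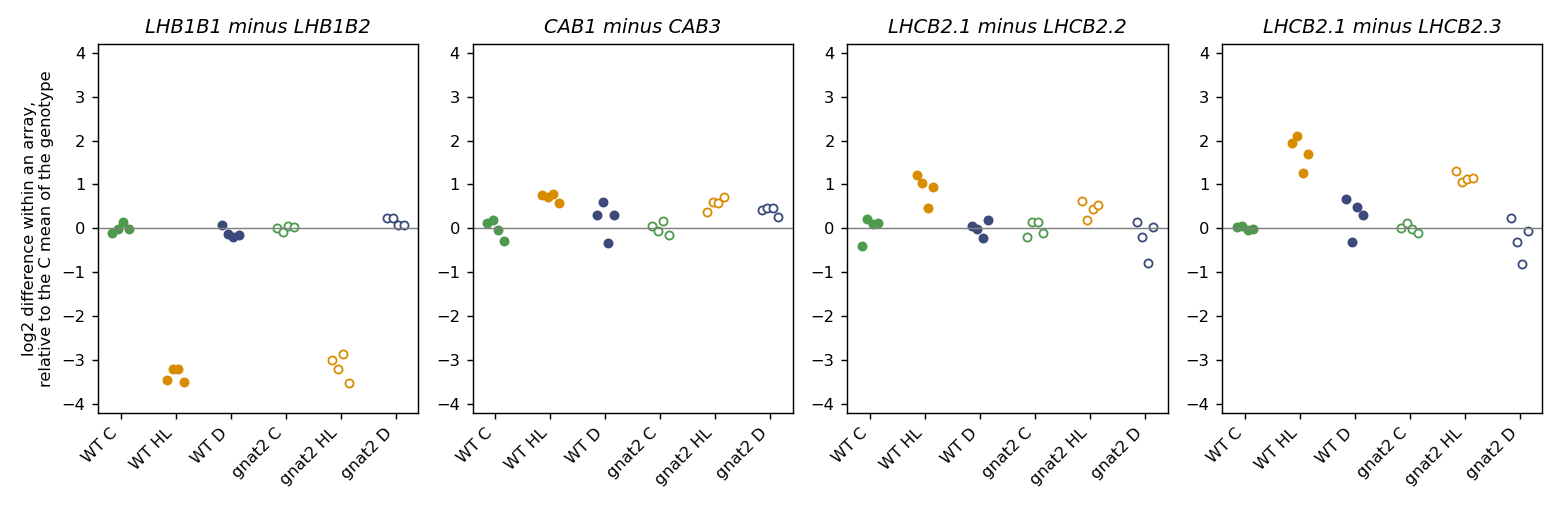
Within-array log2 difference between paralogs (y axis), relative to the mean under C of the same genotype, by genotype and light (x axis), 1 point per array. The HL points lie apart from the C points in all 4 pairs, farthest for *LHB1B1* minus *LHB1B2* with a mean shift of -3.34 in WT, and the D points overlap with C except for *LHB1B1* minus *LHB1B2* and *CAB1* minus *CAB3* in *gnat2*.

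Darkness for 2 h had smaller effects with mixed directions. In WT, 2 genes were called lower, beside 13.1% of all transcripts, and 1 was called higher, beside 12.7%. In *gnat2*, 2 genes were called lower, beside 14.5%, and 1 higher, beside 13.3%. Counts this small were read beside those shares, and nothing particular to the family was drawn from them. The median log2 fold change of the 9 genes was -0.18 in WT and -0.16 in *gnat2*, and 0 of them changed by over 2-fold. The share of all transcripts over 2-fold in darkness was not counted here, so that this 0 was not read as particular to the family. Among markers, *MYB60* had means of 3.27 in WT and 2.59 in *gnat2* under D, *SUC2* 6.77 and 6.47, *ATML1* 6.54 and 6.58 and *RCA* 11.11 and 11.02, beside 11.33 and 11.19 for *RCA* under C. *RBCS2B* had means of 9.12 in WT and 8.71 in *gnat2* under D, beside 9.21 and 8.65 under C. Those of *RBCS1A* were 12.40 and 12.50 under D, beside 12.72 in both genotypes under C. Their part in the D result was not tested.

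*LHCB2.3* had the largest fall in darkness in WT, where it read 4.51, 5.27, 4.58 and 5.09. Replicate 2, at 5.27, lay above the lowest C array, at 5.25. The fall was 0.68 on the log2 scale (standard error 0.16, adjusted p = 0.00179), and the call held in all 17 alternatives. In *gnat2* the D arrays read 4.90, 5.23, 5.15 and 5.25, beside 5.08, 5.35, 5.40 and 5.34 under C, and the log2 fold change of -0.16 was not called (adjusted p = 0.567). The difference between the genotypes in this response was 0.52 (95% interval 0.06 to 0.98), with an unadjusted p of 0.0295 and an adjusted p of 0.604.

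*LHCB2.2* read 10.69, 10.53, 10.84 and 10.75 in WT under D, below all 4 C arrays. It was 0.39 lower on the log2 scale, or 1.31-fold (standard error 0.11, adjusted p = 0.00773). With cyclic loess normalization between arrays the change was -0.15 (adjusted p = 0.359), and with only the 8 arrays compared in the fit the adjusted p was 0.0661. In *gnat2* the gene read 10.98, 11.09, 11.10 and 11.14 under D and 11.26, 11.30, 11.23 and 11.34 under C, again without overlap, and the change of -0.20 was not called (adjusted p = 0.198).

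In the third LHCB2 gene, *LHCB2.1*, the D arrays read 5.59, 5.37, 5.48 and 5.80 in WT and 5.74, 5.52, 4.94 and 5.79 in *gnat2*, and both groups overlapped with C. The log2 fold changes were -0.39 in WT (adjusted p = 0.0600) and -0.41 in *gnat2* (standard error 0.15, adjusted p = 0.0460). Replicate 3 was the low array in *gnat2*, and without it the change was -0.22 (adjusted p = 0.272). The call held in 8 of 17 alternatives.

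Among the LHCB1 genes, *LHB1B1* rose in darkness in *gnat2*. It read 11.73, 11.43, 11.73 and 11.69 under D, above all 4 C arrays, a rise of 0.43 on the log2 scale (standard error 0.13, adjusted p = 0.0141), and was called in all 17 alternatives. In WT the D arrays read 11.65, 11.10, 11.61 and 11.51 and replicate 2 was below the C arrays while the other 3 were above them, and the change of 0.19 was not called (adjusted p = 0.359). Cyclic loess gave 0.41 in WT (adjusted p = 0.0271). The difference of the D responses was not called either, with 0.25 (95% interval -0.14 to 0.64, adjusted p = 0.821).

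For *LHB1B2*, the D arrays read 10.58, 10.24, 10.82 and 10.68 in WT and 10.56, 10.28, 10.71 and 10.69 in *gnat2*. In both genotypes replicate 2 was the lowest, below the C arrays in WT and among them in *gnat2*, and the other 3 lay above all C arrays. The changes of 0.29 (adjusted p = 0.0838) and 0.28 (adjusted p = 0.0913) were not called, whereas cyclic loess gave 0.52 (adjusted p = 0.00175) and 0.49 (adjusted p = 0.00238).

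*CAB3* varied widely in WT under D, with 9.77, 9.32, 10.29 and 9.70, and was not called (log2 fold change -0.21, adjusted p = 0.329). In *gnat2* it read 9.41, 9.29, 9.50 and 9.51 under D and 9.79, 9.88, 9.82 and 9.94 under C. There it was lower by 0.43 (standard error 0.15, adjusted p = 0.0278), called in 12 of 17 alternatives, and -0.24 with cyclic loess (adjusted p = 0.271). *CAB1* stayed at 9.96 ± 0.06 (SD, n = 4) in WT and 10.18 ± 0.09 in *gnat2* under D, beside 9.97 ± 0.05 and 10.21 ± 0.09 under C, so that its changes of 0.00 (95% interval -0.22 to 0.21) and -0.03 (95% interval -0.25 to 0.18) lay within the spread.

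*LHCB3* read 11.28, 11.09, 11.26 and 11.28 in WT under D and 11.28, 11.10, 11.32 and 11.34 in *gnat2*, each below all C arrays of its genotype, which began at 11.30 and 11.40. The changes of -0.18 (adjusted p = 0.208) and -0.17 (adjusted p = 0.217) were not called. Over the 17 alternatives they ranged from -0.21 to 0.09 in WT and from -0.20 to 0.06 in *gnat2*, so that their direction depended on the processing. *CAB2* was called higher in WT (0.43, adjusted p = 0.0404), from values below the array median and in 6 of 17 alternatives only. The difference between the genotypes in the D response was called for 0 of 9 genes and 0.0288% of all transcripts, at an adjusted p under 0.05. Without adjustment, *LHCB2.3* and *CAB2* had a p under 0.05, which is 2 of 9 genes beside 7.53% of all transcripts.

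Within arrays, *LHB1B1* moved against *LHCB2.1* in darkness, by 0.58 in WT and 0.84 in *gnat2* (exact p = 0.0286 in each). Against *LHCB3* it gained 0.36 in WT (exact p = 0.0571, with overlap) and 0.61 in *gnat2* (exact p = 0.0286). The neighbours *LHB1B1* and *LHB1B2* shifted by -0.10 in WT (exact p = 0.229) and by 0.15 in *gnat2* (exact p = 0.0286), a fraction of their shift under HL. *CAB1* gained on *CAB3* by 0.40 in *gnat2* (exact p = 0.0286), and in WT the shift of 0.21 had overlapping arrays (exact p = 0.371). Among LHCB2 genes, 0 of the 4 shifts in darkness reached the smallest p, with exact p-values of 0.257 to 1.00.

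Compared directly, HL was lower than D for 8 of 9 genes in WT (18.6% of all transcripts) and for 8 of 9 in *gnat2* (19.7%). *LHB1B1* was 26.2-fold lower under HL than under D in WT and 24.1-fold lower in *gnat2*. *LHCB2.1* was the gene not called in WT, with -0.29 (adjusted p = 0.138), and *CAB2* the one in *gnat2*, with 0.06 (adjusted p = 0.829). By group means of the deposited values, the order within a genotype was D, C, HL for *LHB1B1* and *LHB1B2* in both genotypes, and C, D, HL for *CAB1*, *CAB3*, *LHCB2.1*, *LHCB2.2*, *LHCB2.3* and *LHCB3*. The order of C and D was not stable for some of the latter. Among the alternatives, the change under D reached 0.22 in WT and 0.17 in *gnat2* for *CAB1*. It reached 0.09 and 0.06 for *LHCB3*, and 0.02 for *LHCB2.2* in *gnat2*. D and C were neighbours in each of these orders, and they differed at the limit only in *LHCB2.2* and *LHCB2.3* of WT and in *CAB3*, *LHB1B1* and *LHCB2.1* of *gnat2*.

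Between the genotypes, the levels of the LHCII genes differed little within a light. Under C 0 of 9 genes were called, where 1.30% of all transcripts were, and under HL 0 of 9, where 1.92% were. Under D 1 of 9 was called, where 3.92% were, and this gene was *CAB2* with values below the array median (-0.55, adjusted p = 0.0419). Unadjusted p-values under 0.05 were found for 1 gene under C, 3 under HL and 4 under D, beside 15.6%, 14.9% and 18.8% of all transcripts. Over the mean of the 3 lights, 2 of 9 were called, where 14.7% of all transcripts were.

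The first of these was *LHCB2.2*, which exceeded WT in *gnat2* by 0.30 on the log2 scale (standard error 0.06, adjusted p = 0.00297), or 1.23-fold. Under HL it read 9.68, 10.03, 9.77 and 9.82 in *gnat2* and 9.25, 9.42, 9.73 and 9.61 in WT, with some overlap, and under D the 4 *gnat2* arrays, given with the dark response, lay above the 4 WT arrays. The differences by light were 0.19 under C (adjusted p = 0.428), 0.32 under HL (adjusted p = 0.137) and 0.38 under D (adjusted p = 0.0518). Of 16 alternatives to each, 3 called *LHCB2.2* under D and 1 called it under HL. The second was *CAB1*, which exceeded WT by 0.22 (standard error 0.06, adjusted p = 0.0158), or 1.16-fold. It read 10.19, 10.17, 10.34 and 10.15 in *gnat2* under C, above all WT arrays under C, and 10.18, 10.11, 10.31 and 10.12 under D, also above them, whereas under HL the genotypes overlapped with 9.14, 9.46, 9.52 and 9.51 in *gnat2*. Both genes were called in all 31 alternatives to the comparison over the lights. Some markers differed between the genotypes by as much or more in a single light. *RBCS2B*, a small subunit of Rubisco, had means of 9.21 in WT and 8.65 in *gnat2* under C, *SUC2* of 5.90 and 5.35 under HL and *MYB60* of 3.27 and 2.59 under D. Other gaps were smaller. Under C, *SUC2* had means of 6.64 in WT and 6.53 in *gnat2*, *ATML1* of 6.63 and 6.73 and *RCA* of 11.33 and 11.19. The green leaf marker *RBCS1A* had a mean of 12.72 in both genotypes under C and HL, with an SD of 0.00 in each group. Such tied values cannot show a difference. The part of the markers in the genotype differences was not tested.

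Of the other 7 genes, *CAB3* came nearest with a log2 difference of -0.17 over the lights (adjusted p = 0.180), followed by *LHB1B1* with 0.14 (adjusted p = 0.244) and *LHCB2.1* with -0.15 (adjusted p = 0.244). *LHCB3* differed by 0.07 (95% interval -0.04 to 0.19), *LHB1B2* by 0.04 (95% interval -0.10 to 0.19) and *LHCB2.3* by 0.01 (95% interval -0.18 to 0.20). For these last 3 genes, the intervals reached at most 0.20 from 0.

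**Figure D4:**
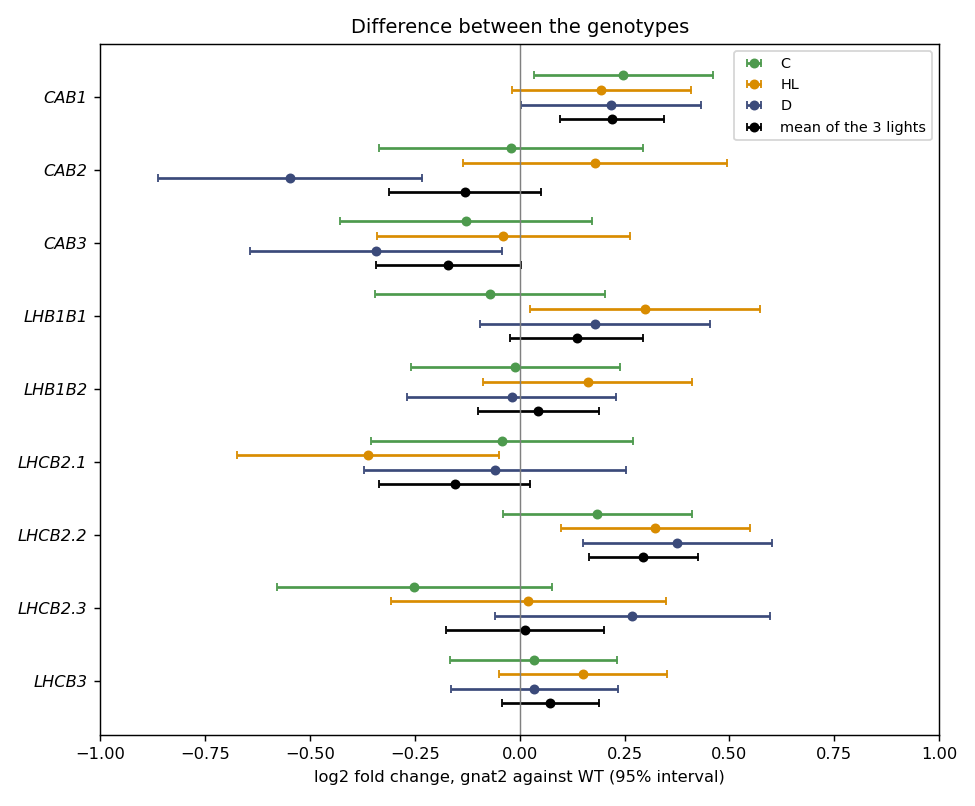
Log2 fold change of *gnat2* against WT (x axis) of each gene (y axis) under C, HL and D and for the mean of the 3 lights, with 95% intervals from limma. Intervals of the mean lie wholly above 0 for *CAB1* (0.22) and *LHCB2.2* (0.30) alone. By single light, intervals without 0 belong to *CAB1* under C and D, *LHB1B1* and *LHCB2.1* under HL, *LHCB2.2* under HL and D, and *CAB2* and *CAB3* under D, and of these only *CAB2* under D passed the adjustment.

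Some of the genes also varied together within the groups. When the mean of each group was subtracted, Pearson's r over the 24 arrays was 0.75 between *LHB1B2* and *LHCB3*, 0.66 between *CAB3* and *LHB1B2*, 0.63 between *LHB1B1* and *LHCB3* and 0.59 between *LHB1B1* and *LHB1B2*. *LHCB2.3* had values of -0.22 to 0.22 with the other genes and *CAB2* of -0.16 to 0.50. *LHCB2.1* had values of -0.30 to 0.09, although its r over all arrays, light effects included, was 0.61 to 0.79 apart from *CAB2*. These arrays share the normalization and the hybridization, and the values are descriptive.

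The transcripts most like 4 of the genes were ranked by Pearson's r over the 24 arrays, outside the family. *CAB1* was followed most closely by *PSAO*, a subunit of photosystem I at the docking site of LHCII, with r of 0.98, and by AT1G51402 (0.97) and AT1G21500 (0.95). *PSAO* fell by 0.94 under HL in WT, beside 0.75 for *CAB1*, and its r within groups was 0.77. *LHB1B1* was followed by AT5G16030, by the minor antenna gene *LHCB4.2* and by *PORB*, which encodes a light-dependent protochlorophyllide reductase, each with r of 0.99. Their HL changes in WT were -4.96, -2.87 and -4.22. *LHCB3* was followed by AT1G51402 (0.96), the glycosyltransferase gene *UGT88A1* (0.95) and the receptor kinase gene *CRK22* (0.95). *LHCB2.1* had lower values, with 0.91 for the cytochrome P450 gene *CYP71B12*, 0.88 for AT3G50270 and 0.87 for *ECT5*. The r values are set largely by the light effects, since within the groups they were 0.20 to 0.77.

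The 12 other antenna genes, LHCB4 to LHCB7 of photosystem II and LHCA1 to LHCA6 of photosystem I, were counted for comparison. Counts of this list and of the lists that follow stand beside the shares of all transcripts. Under HL, 11.5% were called lower in WT and 12.1% in *gnat2*, and 3302 and 3471 of the 27826 were called higher. Under D, 13.1% and 14.5% were called lower. Between the genotypes over the lights, 14.7% were called in either direction. Under HL 8 were lower and 2 higher in WT, and 9 lower and 2 higher in *gnat2*, with median log2 fold changes of -0.47 in both. *LHCB4.2*, for a minor antenna protein that links LHCII to the core, fell by 2.87 in WT (adjusted p = 7.65e-15) and by 2.70 in *gnat2*, from 8.56 ± 0.09 to 5.70 ± 0.22 (SD, n = 4) in WT. *LHCB7* rose by 2.33 in both genotypes (adjusted p = 1.86e-08 in WT). Under D, 3 were lower in WT and 2 in *gnat2*, among them *LHCA6*, whose protein links photosystem I to the NADH dehydrogenase-like complex, with -1.04 in each, and *LHCB6*, with -0.53 and -0.52. Over the 3 lights, *LHCB7* (0.51), *LHCB4.3* (0.26) and *LHCA5* (0.25) were higher in *gnat2* and *LHCA3* (-0.23) and *LHCB4.1* (-0.17) were lower, with adjusted p-values of 0.00763 to 0.0499. *LHCB4.3* exceeded the array median on only 5 of 24 arrays, so that its differences, under HL too, were measured near background.

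LHCII proteins are made in the cytosol, guided through the stroma by a signal recognition particle and inserted with newly made chlorophyll b. Of 8 genes for import, insertion and chlorophyll b turnover, 4 were lower and 1 higher under HL in each genotype. *CH1*, the chlorophyllide a oxygenase that makes chlorophyll b, fell by 1.84 in WT (adjusted p = 1.21e-11) and by 1.70 in *gnat2*, and *cpSRP43*, the signal recognition particle subunit that binds LHC proteins, by 1.21 and 1.42. The gene that rose, *NYC1*, encodes a chlorophyll b reductase of chlorophyll breakdown. Under D, 4 were lower in WT and 5 in *gnat2*. *LTD*, which guides LHC proteins inside the plastid, fell by 0.78 and 0.82, and *CH1* by 0.81 and 0.35. *CH1* was higher in *gnat2* than in WT under D by 0.48 (adjusted p = 0.0239) and over the lights by 0.22 (adjusted p = 0.0325).

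State transitions are driven by the LHCII kinase STN7 and reversed by the phosphatase TAP38. Under HL both transcripts were lower, *STN7* by 0.56 in WT and 0.57 in *gnat2* and *TAP38* by 0.50 and 0.49. Under D, *TAP38* was lower in WT (-0.44, adjusted p = 0.000885) and *STN7* in *gnat2* (-0.31, adjusted p = 0.00925). The other genotype moved the same way without a call. *STN7* had means of 7.64 under C and 7.46 under D in WT, and *TAP38* of 8.71 and 8.63 in *gnat2*. The difference of the D responses was called for 0 of the 2 genes. Neither gene was called different between the genotypes.

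**Figure D5:**
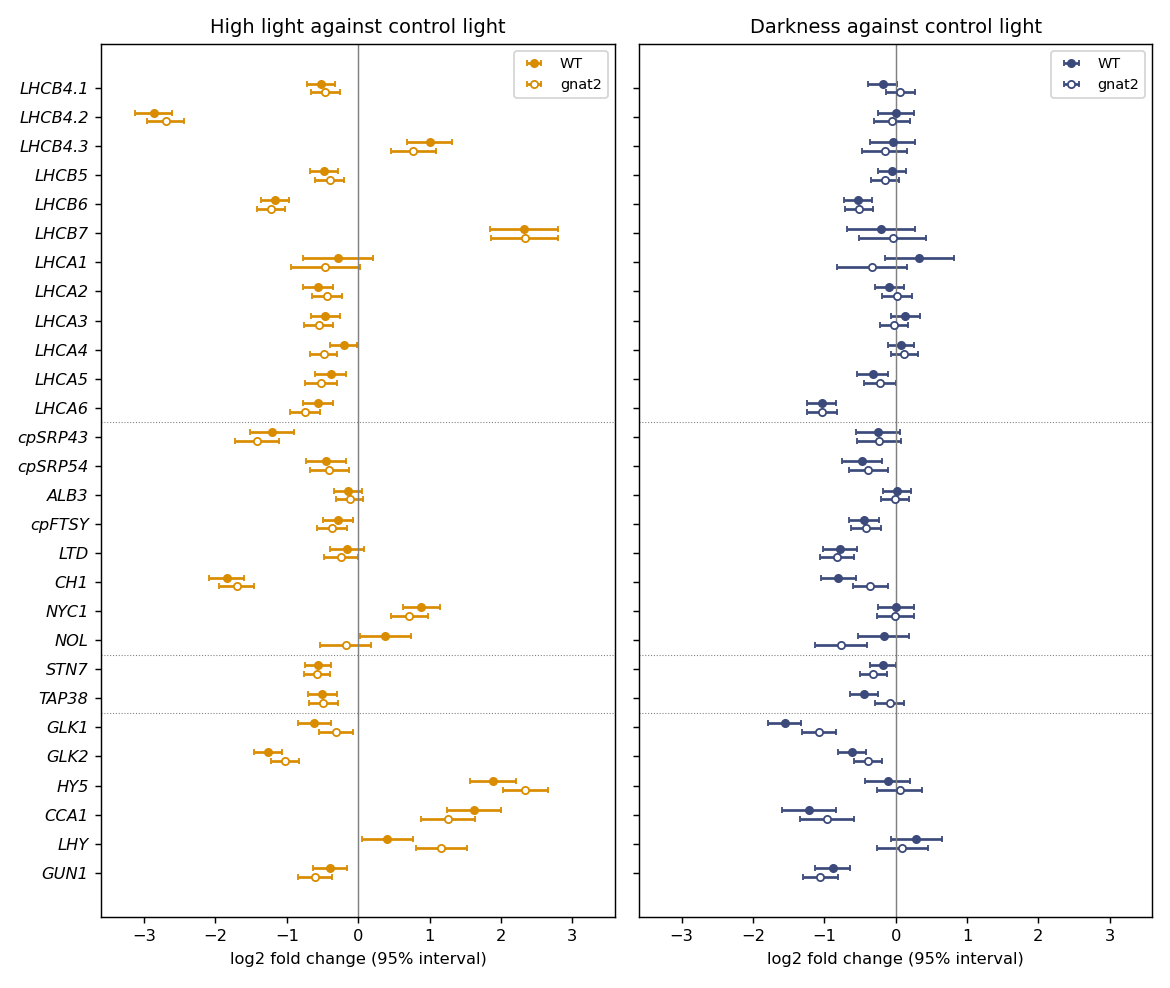
Log2 fold change under HL (left) and D (right) against C (x axes) of the other antenna genes, the import, insertion and chlorophyll b genes, the LHCII kinase and phosphatase, and the regulators (y axis, blocks parted by dotted lines), with 95% intervals, filled for WT and open for *gnat2*. *LHCB4.2* has the largest fall under HL (-2.87 in WT), *LHCB7* and *HY5* rise (2.33 and 1.89 in WT), and *GLK1* has the largest fall under D (-1.55 in WT).

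Of 6 regulators of LHCB genes, 2 were higher and 3 lower under HL in WT, and 3 were higher and 3 lower in *gnat2*. *HY5*, a light-responsive bZIP factor that binds LHCB promoters, rose by 1.89 in WT and 2.34 in *gnat2* (adjusted p = 7.80e-10 in WT), from a level below the array median under C. *CCA1*, a clock factor first described as a binder of an LHCB1 promoter, rose by 1.63 and 1.26. The lower genes included *GLK1* and *GLK2*, a pair of GOLDEN2-LIKE activators of antenna genes. Under C and HL, *GLK2* had means of 9.12 and 7.86 in WT and of 9.25 and 8.22 in *gnat2*. Those of *GLK1* were 8.17 and 7.55 in WT and 7.85 and 7.54 in *gnat2*. Under D, 4 regulators were lower in each genotype. *GLK1* fell by 1.55 in WT and 1.07 in *gnat2*, and *CCA1* by 1.21 and 0.97. Between the genotypes, *GLK2* was higher in *gnat2* under HL (0.36, adjusted p = 0.0493), under D (0.34, adjusted p = 0.0417) and over the lights (0.28, adjusted p = 0.00168), and the clock gene *LHY* was lower under C (-0.72, adjusted p = 0.0374), under D (-0.92, adjusted p = 0.00450) and over the lights (-0.54, adjusted p = 0.000988). The level of *LHY* was close to the array median in *gnat2*, with means of 2.28 under C and 2.38 under D, which limits how large these differences can be.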

How the data were processed

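One Affymetrix AraGene array was measured per sample. The authors annotated probes by TAIR definitions through a custom CDF, corrected the background (RMA) and normalized by quantiles, which removes differences in total RNA, and the deposited table holds log2 values. Raw intensities were not used, and the number of arrays limits the precision. With limma 3.58.1 (R 4.3.3), 1 mean per genotype and light was estimated for all 27826 transcripts, with 18 residual and 6.05 prior degrees of freedom. Tests were two-sided, and each comparison was corrected over all transcripts after Benjamini and Hochberg, with calls at an adjusted p under 0.05. The study's methods name a one-way analysis of variance at a false discovery rate of 0.05, of which this is the moderated form. Replicates are biological by their labels, and p-values measure the spread between them. The labels name no pairing, and arrays with the same replicate number were not taken as pairs in the main fits or the permutation tests. Their deviations had a mean r of 0.08 over 60 pairs, of which 14 exceeded 0.1, beside -0.03 for arrays of other numbers. For 23 of the 24 arrays the best match had the same number. Whether the number marks a batch was not tested, and fits with a replicate block are given below. The scripts were tested on simulated data.

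Genes outside the family were named when they had one of the 2 largest absolute changes of their list in WT under HL or D or a called genotype difference, or were among the 3 transcripts most like *CAB1*, *LHB1B1*, *LHCB2.1* or *LHCB3*. *NYC1*, *STN7* and *TAP38* were added once the values had been seen. The genes and lists were chosen with earlier results of these data known. Names and gene order came from RefSeq's table of TAIR10.1, which lists 27241 of the transcripts and all 9 LHCII genes. Alternatives were a replicate block, no moderation, an intensity trend, array weights, a filter at the lower quartile, median centring, cyclic loess, fits of the compared arrays only, adjustment over all comparisons, other fold limits and each array left out in turn.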

Additional observations from a re-analysis of the deposited data

Results flagged for a closer look

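In 4 of the 54 sets of 4 arrays (9 genes in 6 groups), 1 array stood far from the other 3, with a gap to the nearest that exceeded the limit of the Dixon test. Chance alone flags about 5% of such sets. *CAB1* read 9.47 in WT HL replicate 3, beside 9.10 to 9.15 on the other arrays, and 9.14 in *gnat2* HL replicate 1, beside 9.46 to 9.52. *LHB1B1* read 11.43 in *gnat2* D replicate 2, beside 11.69 to 11.73. *LHCB3* read 11.09 in WT D replicate 2, beside 11.26 to 11.28. The HL calls of *CAB1* and the D call of *LHB1B1* in *gnat2* were also made without these arrays.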

How the results depend on the processing

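Under HL, all calls for the 9 genes against C and against D stayed on their side of the threshold in all 17 alternatives to each comparison. Counted over genes, comparisons and alternatives, these were 612 outcomes, which share the same arrays. The differences between responses stayed uncalled in all 24 alternatives to each, or 432 outcomes. With the replicate block, which pairs arrays by number, 8 of 9 genes were called under HL in each genotype, 2 under D in WT (3 without the block) and 3 in *gnat2*, and 0 (1 without it) between the genotypes under D, where *CAB2* had an adjusted p of 0.0513. In 23 of 24 arrays the deviations correlated best with an array of the same number, a hint from the data and not from the design. The permutation tests of the paralogs were not repeated within replicate numbers, so that their p-values leave any such pairing out. The single gene called between the genotypes under D became 0 with array weights, cyclic loess or only the compared arrays and 2 with an intensity trend or the filter on low values, and under HL the intensity trend gave 1 in place of 0. The gene gained in each case was *LHCB2.2*, with adjusted p-values of 0.0110 and 0.0488 under D and 0.04635 under HL. Without moderation, the gene called under D was *LHCB2.2* (adjusted p = 0.0306) in place of *CAB2* (adjusted p = 0.0552). With each array left out, the count under D ranged from 0 to 2. The D response in WT fell from 3 genes to 1 with only the compared arrays. In *gnat2* it ranged from 1 to 3 with each array left out, and it was 1 without *gnat2* C replicate 2 or 4. A limit of 1.5-fold called 8 genes in WT under HL and 1 under D, where the 2-fold limit called 5 and 0, and a log2 limit of 1.5 called 3 in WT and 2 in *gnat2* under HL. The shares of all transcripts at the 1.5-fold limit and the log2 limit of 1.5 were not counted. Nothing particular to the family was therefore drawn from the counts at these limits. The causes of these moves were not tested. Precision is limited by 4 arrays per group, and values of *CAB2* by its signal near background.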
